A study of Mus musculus with 6 samples.

Results

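The 9 genes described here are regulators and products of the adipocyte programme: the transcription factors Pparg, Cebpa, Cebpb and Cebpd, the lipid droplet coat gene Plin2, the lipid handling genes Fabp4, Cd36 and Lpl, and the adipokine gene Adipoq. They were chosen by name, and each had 1 of the 54532 rows of the deposited table. RNA sequencing compared MC3T3-E1 cells, a mouse calvarial pre-osteoblast line, in osteogenic medium (3 control samples) with cells in the same medium plus metformin, a biguanide that lowers blood glucose (3 samples). Both groups were induced for 3 days, and metformin was at 0.2 mM. The medium held β-glycerophosphate, ascorbic acid and dexamethasone, so both groups received a glucocorticoid. Dose, time and medium contents come from the study's methods and text and not from the sample labels, and no group without osteogenic medium is analysed here. The labels also do not say that replicates came from separate cultures, although the study calls them biological replicates. The p-values therefore set group differences against the spread between these samples only, in part pooled over all genes.

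Osteoblasts and adipocytes arise from a shared mesenchymal progenitor. In cells that become adipocytes, C/EBPβ and C/EBPδ act early and are followed by C/EBPα and PPARγ, which maintain each other and switch on genes such as Fabp4, Lpl, Cd36 and Adipoq. Perilipin 2, the product of Plin2, coats lipid droplets in many cell types other than adipocytes, and C/EBPβ also acts in osteoblasts.

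With metformin Plin2 fell to 61.6% of its control mean, and it was the one gene of the 9 with a call on all 6 samples. Cebpb, Cebpd and Cebpa were also lower in metformin than in controls 2 and 3, but control replicate 1 lay far below the other controls for these genes, and their calls depended on it. Fabp4 was low and did not pass the test in either direction. Pparg, Cd36, Lpl and Adipoq were close to absent, with at most 13 reads in any sample.

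The table holds FPKM, in which read numbers are divided by gene length and library size, and levels of different genes are compared only on this scale. The reads behind them were recovered exactly and summed to between 18399861 and 22111790 per sample. Groups were compared by limma on log2(FPKM + 1), with 12681 genes of at least 0.5 FPKM on average tested, and a call is a Benjamini-Hochberg adjusted p under 0.05. Of the 9 genes 5 reached this mean, and all log2 fold changes are metformin against control. With the added 1, fold changes of low genes come out smaller than they are. The median log2 fold change of all tested genes was 0.0053.

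Control replicate 1 stood apart before any group was compared. Its log2 values had Pearson correlations across genes of 0.960 and 0.952 with control replicates 2 and 3, which had a correlation of 0.988 with each other, whereas the metformin samples had correlations of 0.992. Its deviation from the other controls had a Spearman correlation of −0.668 with transcript GC content across genes, which are not independent replicates. The results on the 9 genes are therefore given with and without this library.

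The osteoblast label was checked against 12 marker genes, of which 11 were tested. Spp1, the gene of osteopontin, had the highest level of the list and averaged 7703 FPKM ± 989 (SD, n = 3) in control and 2704 FPKM ± 23.4 (SD, n = 3) with metformin. With metformin 3 of the markers were higher (Col1a1, Col1a2 and Dlx5), and 3 were lower (Ibsp, Spp1 and Dmp1), where 13.2% of all tested genes were higher and 9.28% lower. Without control replicate 1, 4 were higher and 5 lower, with Sp7, Bglap and Bglap2 added, where 23.4% of all tested genes were higher and 20.4% lower. The calls on Ibsp, Spp1 and Dmp1 held in all 6 fits that each left out 1 sample, that on Col1a2 in 4, and those on Col1a1 and Dlx5 in 3. The summed FPKM of the list was 10113 to 11879 in control and 6875 to 7274 with metformin. Most of the control sum was Spp1, so the sum mainly follows that gene. Mean Col1a1 rose from 1339 to 2487 FPKM and Col1a2 from 970 to 1444 FPKM, while Ibsp fell from 814 to 265 FPKM. Of 14 mature adipocyte markers 6 had 0 reads in every sample (Cidec, Retn, Cfd, Slc2a4, Pck1 and Ucp1), and only Agpat2 and Adipor2, which many cell types express, were tested, with 0 calls. The summed FPKM of this list, most of it Adipor2 and Agpat2, was 29.2 to 34.7 in control and 33.0 to 34.4 with metformin. The sum therefore says little about the other markers. Tusc5 had 0.130 to 0.247 FPKM in control and 0 to 0.0466 with metformin, without overlap, as for 20.5% of tested genes. Gpd1 had 0.148 to 0.498 FPKM in control and 0.0511 to 0.191 with metformin, with overlap. These genes had at most 16 and 29 reads in a sample. Plin1, Lep, Aqp7 and Adrb3 had at most 4, 6, 9 and 2 reads, and their groups overlapped. Macrophages also express Cd36 and Lpl. Of 8 macrophage markers Itgam and Tyrobp had 0 reads, and 2 were tested. Cd68 was lower (log2 fold change −0.49, adjusted p = 0.0102). Lyz2, which had the highest level, had 13.1 to 24.0 FPKM in control and 25.9 to 29.6 FPKM with metformin, without overlap, and was not called on all samples (log2 fold change 0.61, adjusted p = 0.0771) but was called higher without control replicate 1 (0.83, adjusted p = 0.00188). The summed FPKM of the list, most of it Lyz2, was 15.3 to 26.0 in control and 27.1 to 30.9 with metformin. Ptprc, Adgre1, Csf1r and Mrc1 had at most 6, 1, 8 and 2 reads in a sample. Endothelial markers summed to 0.156 FPKM or less in every sample, with Gpihbp1 at 0 reads and Pecam1 highest, and muscle markers to 2.80 FPKM or less, with Myod1, Myog and Myf5 at 0 reads and Des highest. The part of these cell types in the results was not tested, and in bulk RNA fewer cells of a type and less RNA per cell cannot be told apart.

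Stretches of 249 bases before the RefSeq start site (GRCm38.p6) are shown for Plin2, the gene that was called, and for Cebpb and Cebpa. The calls on these 2 C/EBP genes depended on control replicate 1, and their promoters and transcripts are rich in G and C. The call on Cebpd depended on that library too, but no RefSeq promoter entry was matched to Cebpd. All stretches are written 5′ to 3′ on the gene's strand, and each ends within 1 base of the start site. Capitals mark AGGTCA, the nuclear receptor core motif, in Plin2 (as its reverse complement), GC boxes (GGGCGG) and the letters TGACG of the cyclic AMP response element on either strand in Cebpb, and TATAAA in Cebpa.
Plin2 (chr4:86670061-86670309, minus strand): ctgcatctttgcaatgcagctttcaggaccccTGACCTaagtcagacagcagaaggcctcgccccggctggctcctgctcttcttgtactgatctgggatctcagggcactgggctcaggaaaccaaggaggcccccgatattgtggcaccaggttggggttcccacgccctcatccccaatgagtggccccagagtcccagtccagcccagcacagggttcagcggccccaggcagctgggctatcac
Cebpb (chr2:167688665-167688913, plus strand): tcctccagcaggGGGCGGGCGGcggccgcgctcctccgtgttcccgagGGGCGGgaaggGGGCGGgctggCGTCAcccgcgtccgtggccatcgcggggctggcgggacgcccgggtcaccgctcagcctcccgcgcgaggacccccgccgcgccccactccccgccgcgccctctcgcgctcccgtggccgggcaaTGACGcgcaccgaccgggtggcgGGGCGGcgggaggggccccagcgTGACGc
Cebpa (chr7:35119043-35119291, plus strand): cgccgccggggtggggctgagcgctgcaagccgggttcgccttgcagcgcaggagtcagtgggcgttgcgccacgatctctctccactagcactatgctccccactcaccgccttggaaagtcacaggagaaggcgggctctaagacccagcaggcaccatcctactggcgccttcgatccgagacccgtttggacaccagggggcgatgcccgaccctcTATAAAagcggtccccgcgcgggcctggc

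The Plin2 stretch held 1 AGGTCA motif, 217 bases before the gene start listed in the table, in a window of 61.4% GC. The same letters were found in 13.99% of all 32851 RefSeq promoter windows. The Cebpb stretch had a GC content of 81.9%, higher than 99.3% of windows, with 5 GC boxes, the first pair of which overlap, and 3 TGACG matches at 180, 53 and 7 bases before the start. A GC box was found in 32.6% and TGACG in 17.7% of all windows. The Cebpa stretch, of 66.3% GC, held TATAAA 30 bases before the start, a motif of 12.4% of windows. RefSeq entries matched 6 of the 9 genes, with 8 promoters, and Cebpd, Fabp4 and Lpl had no entry. None of the 8 held the C/EBP palindrome TTGCGCAA (0.164% of windows), the full cyclic AMP response element TGACGTCA (1.54%) or AGGTCANAGGTCA, 2 core motifs with 1 base between (0.0335%), on either strand. AGGTCA was in 4 of the 8, those of Plin2 and Cd36 and both of Pparg. These are matches of letters, and none was examined as a binding site.

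In each of the 6 samples the level per length fell in the order Cebpb, Plin2, Cebpd, Cebpa and Fabp4. The mean level over all samples of Cebpb was above that of 98.7% of tested genes, Plin2 above 92.4%, Cebpd above 86.4%, Cebpa above 53.1% and Fabp4 above 21.6%. The order of neighbours depended in part on the length used. The table divides by the union of all annotated exons, which for Fabp4 is 4489 bp, 5.01 times its main transcript of 896 bp, and for Plin2 is 3512 bp, 1.86 times its main transcript. On main transcript length the control mean of Fabp4 was 11.1 FPKM, above the 8.02 FPKM of Cebpa, and that of Plin2 was 109 FPKM, above the 71.9 FPKM of Cebpb in control replicate 1 although below its control mean. For a given gene, ratios of FPKM between samples do not depend on this length. Log2 fold changes of (FPKM + 1) do, because the added 1 stays fixed, and more so for a gene as low as Fabp4. They were not fitted on main transcript length.

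**Figure D1:**
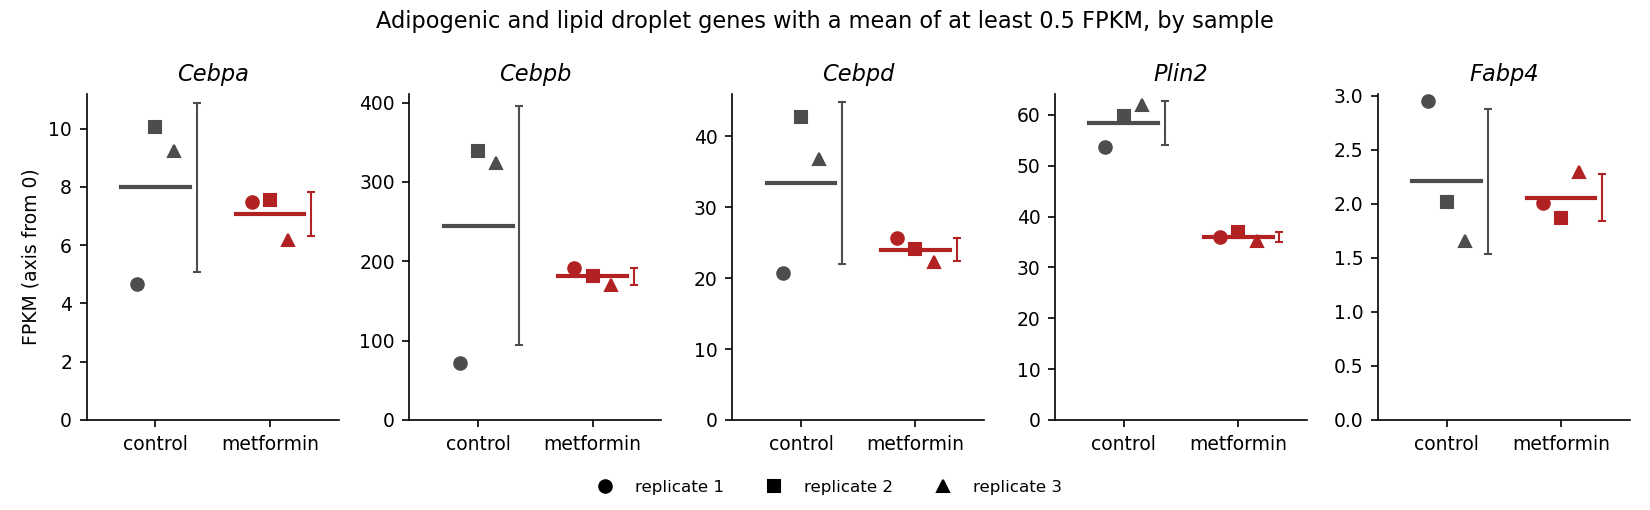
FPKM (y axes from 0, 1 scale per gene) of the 5 genes with a mean of at least 0.5 FPKM in 3 control and 3 metformin samples; points are samples, horizontal lines group means and bars ± SD. The 3 metformin samples of Plin2 (35.2 to 37.0) lie below all controls (53.6 to 62.0), while control replicate 1 is the lowest sample of Cebpa, Cebpb and Cebpd and the highest of Fabp4.

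Plin2 lies on chromosome 4 from 86648386 to 86670060 (GRCm38, minus strand), and its main transcript has 8 exons. Its levels in control replicates 1 to 3 were 53.6, 59.9 and 62.0 FPKM. With metformin they were 35.9, 37.0 and 35.2 FPKM. All metformin samples lay below all controls, as they did for 20.5% of tested genes. The mean fell from 58.5 FPKM ± 4.35 to 36.0 FPKM ± 0.953 (SD, n = 3 each), a log2 fold change of −0.68 (SE 0.089, 95% confidence interval −0.89 to −0.47, adjusted p = 0.00262 by limma). The decrease rests on 2405 to 4411 reads per sample. Plin2 was the only gene called lower of the 5 tested, where 9.28% of all tested genes were lower and 13.2% were higher. No gene of the 5 was higher, also at an unadjusted p under 0.05 and in the limma-voom fit on recovered reads (0 each). The call on Plin2 held in all 6 fits that each left out 1 sample, with log2 fold changes from −0.74 to −0.64 and adjusted p from 0.000152 to 0.0241. Without control replicate 1 the log2 fold change was −0.74 (adjusted p = 0.000152), and the limma-voom fit on recovered reads gave −0.70 (adjusted p = 0.00127). A transcript of another gene, Gm12551, is 96.1% identical to Plin2 over 259 bases and had 0 reads in every sample.

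Cebpb encodes C/EBPβ and is a gene of 1 exon on chromosome 2 from 167688915 to 167690418 (plus strand). Control replicate 1 had 71.9 FPKM, and control replicates 2 and 3 had 340 and 324 FPKM. The metformin samples had 192, 181 and 171 FPKM. The metformin samples thus lay between control replicate 1 and the other controls, and the groups overlapped. Over all samples the control mean was 245 FPKM ± 150 and the metformin mean 181 FPKM ± 10.6 (SD, n = 3 each), with a log2 fold change of −0.14 (SE 0.57, 95% confidence interval −1.50 to 1.22, adjusted p = 0.888 by limma). This interval spans both a decrease and an increase of more than 1 on the log2 scale. Without control replicate 1 the metformin mean was 54.6% of the mean of the other controls (332 FPKM), with a log2 fold change of −0.87 (95% confidence interval −1.04 to −0.70, adjusted p = 0.000271). Without control replicate 2 the log2 fold change was 0.24, and without control replicate 3 it was 0.21, neither with a call.

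Cebpd encodes C/EBPδ, which glucocorticoids such as dexamethasone are known to induce, and is a gene of 1 exon on chromosome 16 from 15887286 to 15891031 (plus strand). Its control levels were 20.7, 42.7 and 36.8 FPKM. With metformin they were 25.6, 24.2 and 22.3 FPKM. All metformin samples were below controls 2 and 3 and above control 1. The means were 33.4 FPKM ± 11.4 and 24.0 FPKM ± 1.65 (SD, n = 3 each), a log2 fold change of −0.40 (SE 0.25, 95% confidence interval −1.003 to 0.20, adjusted p = 0.303 by limma). Leaving out control replicate 1 put the metformin mean at 60.4% of that of the other controls (log2 fold change −0.70, 95% confidence interval −0.91 to −0.49, adjusted p = 0.00132). Cebpd kept a negative fold change whichever sample was left out, from −0.70 to −0.20.

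Cebpa, which encodes the later factor C/EBPα, is a gene of 1 exon on chromosome 7 from 35119293 to 35121928 (plus strand). Its control levels were 4.67, 10.1 and 9.24 FPKM. With metformin its levels were 7.48, 7.56 and 6.19 FPKM, again between control replicate 1 and the other controls. The means were 7.99 FPKM ± 2.90 and 7.07 FPKM ± 0.765 (SD, n = 3 each), a log2 fold change of −0.10 (SE 0.25, 95% confidence interval −0.70 to 0.50, adjusted p = 0.813 by limma). When control replicate 1 was left out, the metformin mean was 73.3% of that of the other controls (log2 fold change −0.40, 95% confidence interval −0.63 to −0.17, adjusted p = 0.0156). Without control replicate 2 the sign turned, to 0.078, and without control replicate 3 it was 0.023, neither with a call.

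Without control replicate 1, 4 of the 5 tested genes were lower and 0 were higher, where 20.4% of all tested genes were lower and 23.4% were higher. The fit then has 2 controls, whose spread is pooled with that of the metformin samples. The deviation of this library was set beside that of tested genes of like GC content. Control replicate 1 lay below the mean of the other controls by −2.19 for Cebpb on the log2(FPKM + 1) scale, and the 20 tested genes within 1 percentage point of its GC content (67.2%) had a median of −1.16, with none of them as low. Cebpa deviated by −0.91 at a GC content of 62.6%, where 153 such genes had a median of −0.73 and 29.4% were lower. Cebpd deviated by −0.90 at a GC content of 51.6%, where 1252 genes had a median of −0.035 and 2.64% were lower. Plin2, with nearly the same GC content as Cebpd (52.1%), deviated by −0.18. After a GC correction within each library, chosen after the data were seen, the log2 fold changes were −0.27 for Cebpb (adjusted p = 0.533), −0.44 for Cebpd (adjusted p = 0.173) and −0.20 for Cebpa (adjusted p = 0.171), and the call on Plin2 remained. That correction moved the median of all tested genes to −0.039. In the fold changes without control replicate 1, genes of like GC content had a median of −0.32 beside the −0.87 of Cebpb, −0.15 beside the −0.40 of Cebpa, −0.019 beside the −0.70 of Cebpd, and −0.036 beside the −0.74 of Plin2. What set control replicate 1 apart was not tested.

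**Figure D2:**
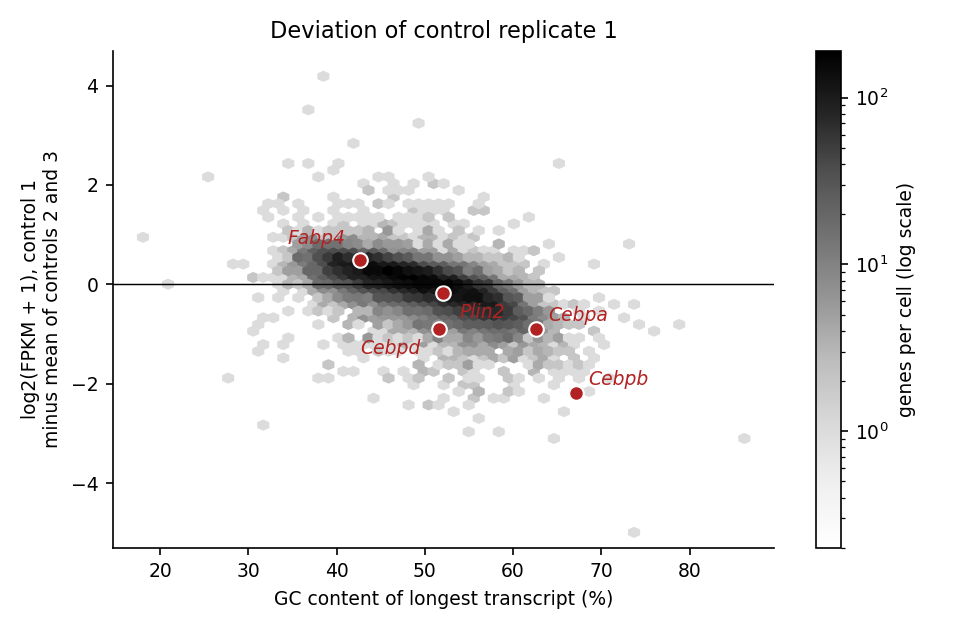
Deviation of control replicate 1 from the mean of control replicates 2 and 3, in log2(FPKM + 1), against transcript GC content in percent; the grey shading counts tested genes per cell on a log scale and red points are the 5 genes of the text. Genes of higher GC content tend to be lower in control replicate 1 (Spearman −0.668 across genes), and Cebpb (−2.19) lies below each of the 20 genes within 1 percentage point of its GC content.

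The make-up of the C/EBP transcripts was compared within each sample. The summed level of Cebpa, Cebpb and Cebpd was 97.3, 392 and 370 FPKM in the control samples and 225, 213 and 199 FPKM with metformin. Cebpb made up 85.1 to 85.7% of this sum with metformin and 86.5 and 87.5% in control replicates 2 and 3, but 73.9% in control replicate 1. The ratio of Cebpb to Cebpd was 7.49 to 7.65 with metformin, 7.95 and 8.79 in control replicates 2 and 3, and 3.47 in control replicate 1. Cebpa made up 3.11 to 3.55% of the sum with metformin, 2.56 and 2.50% in control replicates 2 and 3, and 4.81% in control replicate 1. The ratio of Cebpb to Cebpa was 24.0 to 27.6 with metformin, 33.8 and 35.0 in control replicates 2 and 3, and 15.4 in control replicate 1. The metformin samples thus lay between control replicate 1 and the other controls in the balance with Cebpa too, and the groups overlapped in each of these measures. Exons of these 3 genes overlap exons of a gene on the other strand: Tmem189 for Cebpb, Spidr for Cebpd and Gm45091 for Cebpa. Spidr shares 563 bases with Cebpd and had 397 to 447 reads in control and 707 to 746 with metformin. Cebpd had 1418, 3357 and 2713 reads in control and 1628 to 1972 with metformin. Tmem189 is 99.4% identical to Cebpb over 320 bases and had 571, 1027 and 1003 reads in control and 928 to 1099 with metformin. Cebpb had 1974, 10711 and 9571 reads in control and 4999 to 5936 with metformin. Strand use in the counting is not given in the sources used here, so reads in these stretches may belong to either gene.

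**Figure D3:**
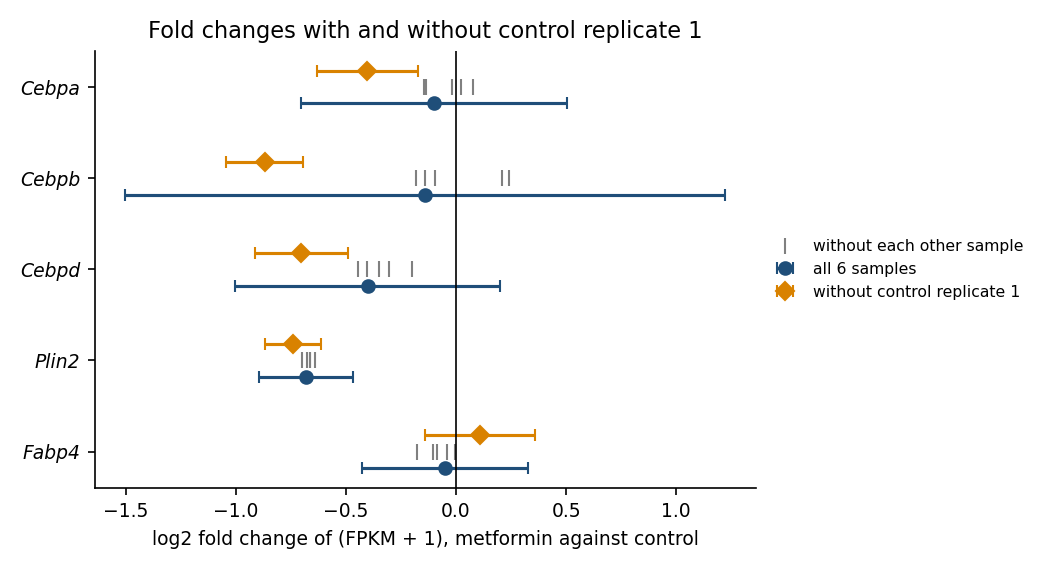
Log2 fold change of (FPKM + 1), metformin against control, with 95% confidence intervals for all 6 samples (circles) and without control replicate 1 (diamonds); grey ticks are fits without each other sample. Plin2 stays between −0.74 and −0.64 in every fit that leaves out 1 sample, and Cebpb ranges from −0.87 to 0.24.

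Fabp4 encodes a fatty acid carrier that is abundant in adipocytes. It lies on chromosome 3 from 10204088 to 10208576 (minus strand). Its control levels were 2.95, 2.02 and 1.65 FPKM, and with metformin they were 2.01, 1.87 and 2.30 FPKM. The groups overlapped, and here control replicate 1 was the highest sample. The means were 2.21 FPKM ± 0.669 and 2.06 FPKM ± 0.218 (SD, n = 3 each), a log2 fold change of −0.05 (SE 0.16, 95% confidence interval −0.43 to 0.33, adjusted p = 0.852 by limma). It was 0.11 without control replicate 1 (95% confidence interval −0.14 to 0.36, adjusted p = 0.423). The log2 fold change of Plin2 (−0.68) lies outside both intervals, although the scale understates changes of a gene as low as Fabp4. Control replicate 1 exceeded the other controls by 0.48, and 80.1% of the 999 genes of like GC content (42.7%) lay below that value, around a median of 0.28. Fabp4 had 146 to 242 reads in each sample.

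Pparg, Cd36, Lpl and Adipoq had means under 0.5 FPKM and are described by their recovered reads. The 3 of them with at least 10 reads in all entered a limma-voom fit on the reads of 17468 genes, of which 17.7% were called in either direction. None of the 3 was called, and 0 had an unadjusted p under 0.05. The same 0 calls were found in each alternative fit that was run. Intervals of read ratios are exact (Clopper-Pearson), cover counting error only, and take the summed reads of each group against its total.

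Pparg encodes PPARγ, the nuclear receptor that directs adipocyte differentiation, on chromosome 6 from 115360951 to 115490399 (plus strand). The control samples had 0, 4 and 6 reads, and the metformin samples had 7, 13 and 8 reads. The metformin samples lay above all controls, as they did for 19.7% of the genes of the fit on reads. The sums were 10 and 28 reads, a ratio per total reads of 2.64 (95% confidence interval 1.25 to 6.10). Without control replicate 1, where a count of 0 allows up to 3 reads, the ratio was 1.80 (0.850 to 4.16). The limma-voom log2 fold change was 1.87 (SE 0.85, 95% confidence interval −0.048 to 3.79, adjusted p = 0.169), and 0.83 without control replicate 1 (adjusted p = 0.365). The difference thus exceeded the counting error of the summed reads on all samples but did not pass the test against the spread between replicates.

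Cd36 encodes a fatty acid translocase on chromosome 5 from 17781690 to 17888801 (minus strand). It had 0, 3 and 1 reads in control and 4, 2 and 2 reads with metformin, and the groups overlapped. The ratio of 8 to 4 reads was 1.89 per total reads (95% confidence interval 0.506 to 8.57). Lpl encodes lipoprotein lipase, which releases fatty acids from circulating triglyceride, on chromosome 8 from 68880491 to 68907448 (plus strand). It had 4, 5 and 2 reads in control and 3, 2 and 2 reads with metformin, a ratio of 0.601 (95% confidence interval 0.197 to 1.70). By limma-voom the log2 fold changes were 1.04 for Cd36 (adjusted p = 0.470) and −0.56 for Lpl (adjusted p = 0.617). Adipoq encodes adiponectin, a hormone of mature adipocytes, on chromosome 16 from 23146536 to 23158028 (plus strand). It had 3, 1 and 0 reads in control and 1, 0 and 0 reads with metformin, a ratio of 0.236 (95% confidence interval 0.00479 to 2.39), and too few for a fit. Without control replicate 1 the ratios were 1.29 for Cd36 (0.345 to 5.84), 0.644 for Lpl (0.193 to 2.15) and 0.644 for Adipoq (0.0082 to 50.5). For none of these 3 genes was a difference detectable at this depth.

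**Figure D4:**
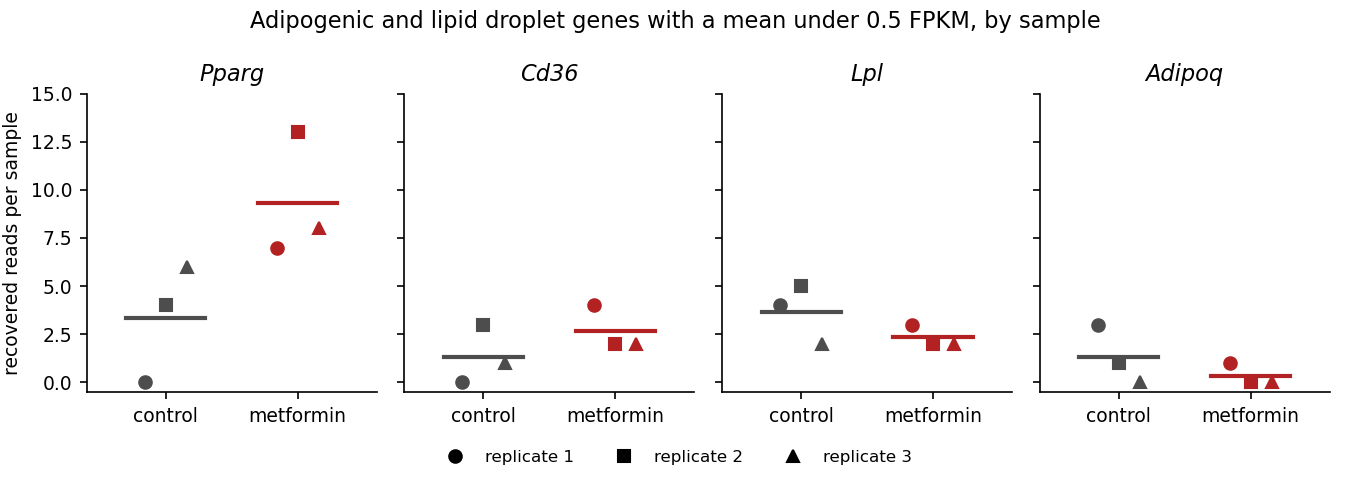
Recovered reads per sample of the 4 genes with a mean under 0.5 FPKM in 3 control and 3 metformin samples; points are samples and lines group means. The highest count is 13 reads of Pparg in metformin replicate 2, and 3 of the 4 genes overlap between the groups.

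Further genes of the pathway were taken as 5 lists. Of 19 other transcription regulators that favour adipogenesis, 14 were tested, 3 were higher and 2 were lower (13.2% and 9.28% of all tested genes), and the median log2 fold change was 0.025 (0.0053 over all tested genes). Egr2, an early zinc finger factor, rose with a log2 fold change of 1.06 (adjusted p = 0.000736 by limma), from 13.9 to 16.3 FPKM in the controls to 29.1 to 34.7 FPKM with metformin, without overlap. Klf4 (0.66, adjusted p = 0.0329) and Ebf1 (0.34, adjusted p = 0.0376) were also higher. Zfp467 (−0.63, adjusted p = 0.0328) and Klf9 (−0.47, adjusted p = 0.0106) were lower. The glucocorticoid receptor gene Nr3c1 had a mean of 14.1 FPKM in control and 14.2 FPKM with metformin and was not called (0.023, adjusted p = 0.930). The counts were 5 and 2 without control replicate 1, against 23.4% and 20.4% of all tested genes.

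Of 18 restrainers of adipogenesis in the table, 16 were tested, 0 were higher and 3 were lower, with a median of −0.19, against 13.2% higher and 9.28% lower among all tested genes. At an unadjusted p under 0.05, 2 were higher, and the limma-voom fit called 1 higher. The 3 lower genes were Sirt1, a deacetylase that represses PPARγ (−0.48, adjusted p = 0.0388), Foxo1, a forkhead factor (−0.43, adjusted p = 0.0356), and Ctnnb1, the gene of β-catenin in Wnt signalling (−0.41, adjusted p = 0.0275). The counts were 8 lower and 1 higher without control replicate 1, against 20.4% and 23.4% of all tested genes.

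The lipid droplet list stood nearest to Plin2. Of its 14 genes, which cover other droplet coat proteins and proteins of triglyceride and droplet assembly, 6 were tested, 3 were lower and 0 were higher, with a median of −0.55, where 9.28% of all tested genes were lower and 13.2% higher. The count was 4 lower without control replicate 1, where 20.4% of all tested genes were lower. At an unadjusted p under 0.05 and in the limma-voom fit, 0 were higher as well. Dgat1, which catalyses the last step of triglyceride synthesis, had 12.8, 15.99 and 16.2 FPKM in control and 9.07, 8.94 and 9.04 FPKM with metformin. The groups did not overlap, and the log2 fold change was −0.67 (SE 0.11, adjusted p = 0.00561 by limma). Bscl2, the gene of seipin, which shapes nascent droplets, had 4.95, 4.12 and 4.003 FPKM in control and 2.61, 2.39 and 2.46 FPKM with metformin (−0.62, SE 0.096, adjusted p = 0.0055). Hilpda, a hypoxia-inducible droplet protein, had 20.2, 20.4 and 16.9 FPKM in control and 10.8, 13.0 and 14.1 FPKM with metformin (−0.57, SE 0.12, adjusted p = 0.0194). Plin3, named here after its values were seen, had 13.4, 21.7 and 23.2 FPKM in control and 12.8 to 12.9 FPKM with metformin. It was not called on all samples (−0.53, adjusted p = 0.102) and was the fourth lower gene of the list without control replicate 1 (−0.76, adjusted p = 0.000162). The adipocyte coat gene Plin1 had at most 4 reads in a sample, and Cidea, Cidec and Fitm1 had 0 reads in every sample.

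Of 7 genes of lipolysis 4 were tested, and 0 were called in either direction by limma, also at an unadjusted p under 0.05. Among all tested genes 13.2% were called higher and 9.28% lower, so 0 calls among 4 genes say little. By limma-voom 0 were called and 2 were lower at an unadjusted p under 0.05. In the limma fit without control replicate 1, Lipa, the lysosomal lipase gene, was higher (0.49, adjusted p = 0.000988). Pnpla2, the gene of adipose triglyceride lipase, was lower in that fit (−0.58, adjusted p = 0.00179). Of all tested genes 23.4% were then higher and 20.4% lower. Both Lipa and Pnpla2 were named after their values were seen.

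Of 14 genes of fatty acid uptake, carriers and lipoprotein lipase partners, 12 were tested, 4 were higher and 2 were lower, with a median of 0.20, against 13.2% higher and 9.28% lower among all tested genes. The counts were 7 and 2 without control replicate 1, with Acsl3, Acsl4 and Cav1 added, against 23.4% and 20.4%. Fabp5, a carrier of the same family as Fabp4, had 2.90, 2.37 and 2.38 FPKM in control and 17.4, 19.2 and 17.8 FPKM with metformin, a log2 fold change of 2.43 (SE 0.093, adjusted p = 6.43e-05 by limma). The 3 metformin samples lay far above all controls. Slc27a3 (0.71, adjusted p = 0.00914), Acsl5 (0.64, adjusted p = 0.00911) and Acsl1 (0.54, adjusted p = 0.00447), all of which activate fatty acids, were the other higher genes, and Acsl1 was named after its values were seen. Slc27a1, a fatty acid transport protein gene, had a mean of 6.05 FPKM ± 0.882 in control and 2.40 FPKM ± 0.236 with metformin (SD, n = 3 each), a log2 fold change of −1.05 (adjusted p = 0.00135). Vldlr, the receptor gene for very low density lipoprotein, averaged 12.8 FPKM ± 1.68 and 6.70 FPKM ± 0.163 (SD, n = 3 each), a log2 fold change of −0.84 (adjusted p = 0.00222). Gpihbp1, the endothelial anchor of lipoprotein lipase, had 0 reads in every sample.

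Of the 52 tested genes of the 5 lists, 7 were higher and 10 were lower, where 13.2% of all tested genes were higher and 9.28% lower. The calls on Egr2, Dgat1, Bscl2, Fabp5, Acsl1, Slc27a1 and Vldlr held in all 6 fits that each left out 1 sample. The calls on Slc27a3 and Acsl5 held in 5 of these fits, those on Klf9, Ctnnb1 and Hilpda in 3, those on Klf4, Foxo1 and Sirt1 in 2, and those on Ebf1 and Zfp467 in 1. Leaving out control replicate 1 gave 14 higher and 17 lower genes, where 23.4% of all tested genes were higher and 20.4% lower. The counts were 6 and 6 without control replicate 2, and 7 and 9 without control replicate 3. They were 5 and 4 without metformin replicate 1, 3 and 4 without metformin replicate 2, and 5 and 5 without metformin replicate 3. Over all tested genes these 6 fits called 938 to 2969 genes higher and 495 to 2590 lower.

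**Figure D5:**
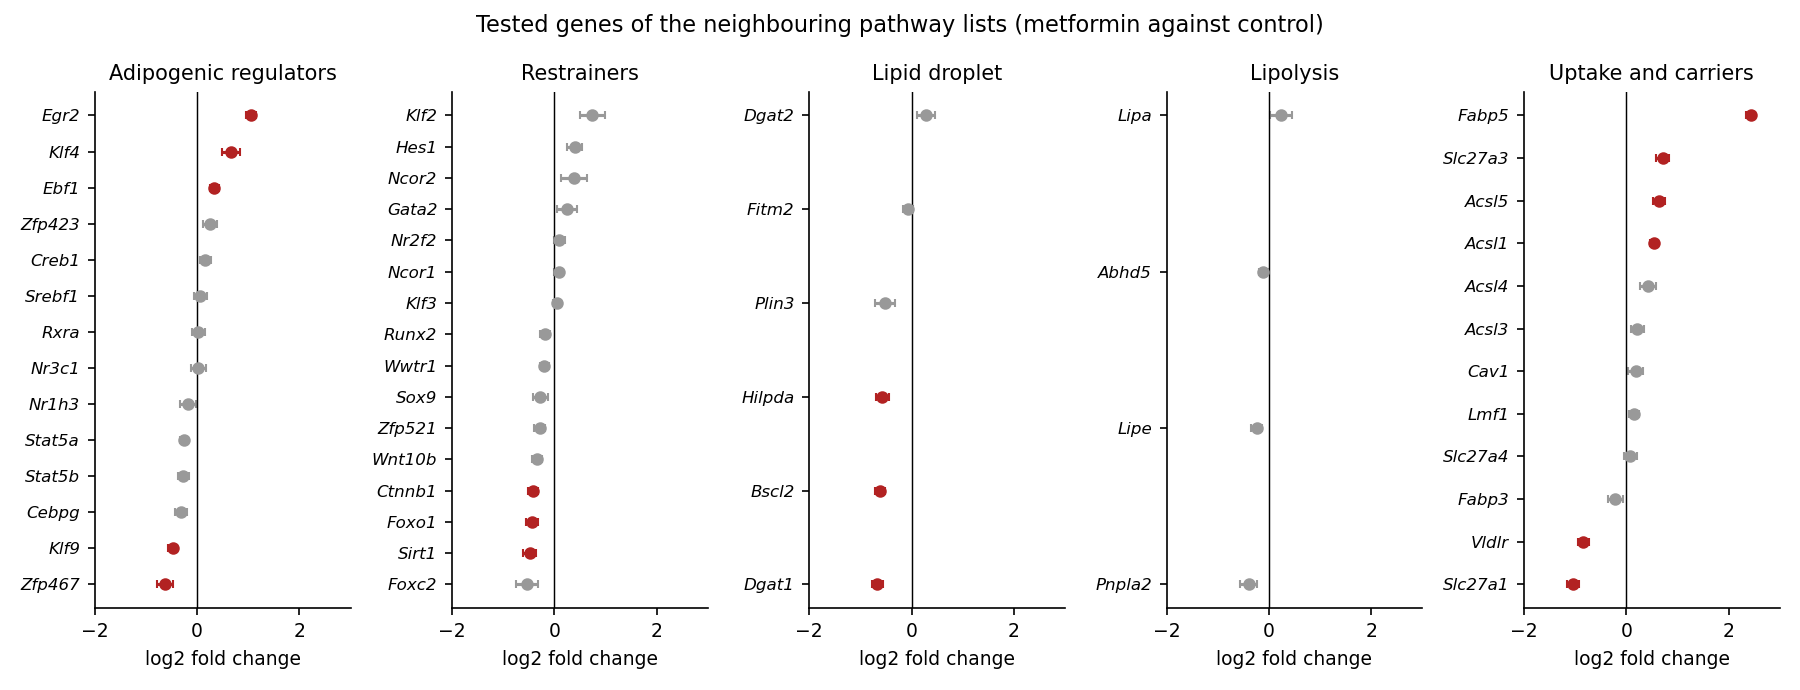
Log2 fold change of (FPKM + 1), metformin against control, ± SE from limma, for the tested genes of 5 pathway lists; red points have an adjusted p under 0.05 and grey points do not. The droplet list holds 3 lower and 0 higher genes, and Fabp5 (2.43) has the highest value of the uptake list.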

How the data were processed

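The authors deposited 1 table of FPKM per gene and sample with no unit named: reads divided by gene length and an effective library size equal to median-of-ratios scaling. Times gene length, 100% of values came out as whole reads (tolerance 0.01). The submitters' processing notes name Bowtie 0.12.2 and the builds mm8 and mm9, but 53499 of the 54532 rows have GENCODE M21 (GRCm38) coordinates, among them those of all 9 genes, and GRCm38 is used here. The study used a count model; the table holds FPKM, so limma 3.58.1 (R 4.3.3, intensity trend, group as the single factor) was used on log2(FPKM + 1), over genes with a mean of at least 0.5 FPKM, and limma-voom on recovered reads of genes with at least 10 reads in all. The 6 columns were matched to samples by their labels, and 0 other columns of per-sample values were present.

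The genes, the pathway lists and the marker lists were chosen with earlier results of these data known. All 9 genes are named, and from each pathway list up to 3 highest and 3 lowest called genes. From marker lists the highest gene and those at 0 are named, and other markers named were chosen after their values were seen. One symbol with 2 rows was left out of the lists, and 1 gene of the uptake list is not reported here. Near-identical transcripts (95% identity over 200 bases) were sought with BLAST+ 2.17.0. GC content is that of the longest transcript, and the GC correction subtracts a spline with 5 degrees of freedom. Between replicates the median chi-square per gene of recovered reads was at least 1.14, where counting alone gives 0.455, so each library counts as 1 sample. The fits were tested on simulated reads with equal variability for all genes and no library set apart. That test does not cover the deviation of control replicate 1. Alternatives were a replicate block, limma-voom, leaving out each sample, a pseudocount of 0.1, total-read scaling and no minimum level. Figures were drawn with matplotlib 3.10.9.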

Additional observations from a re-analysis of the deposited data

How the results depend on the processing

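Plin2 kept its call and direction under every alternative that was run, and 0 of the 9 genes were called higher in any. Calls on Cebpa, Cebpb and Cebpd depended on control replicate 1. Leaving out 1 sample at a time, the number of the 9 genes called lower was 1 to 4 (4 without control replicate 1), the tested genes called higher were 938 to 2969 and those lower 495 to 2590 (1670 and 1177 on all samples), and the genes of the 5 pathway lists called higher were 3 to 14 and those lower 4 to 17 (7 and 10 on all samples). The highest of these counts came without control replicate 1. The lower counts over all tested genes were 741 without control replicate 2, and 495, 518 and 533 without metformin replicates 1, 2 and 3. The log2 fold change changed sign in these fits for Cebpa (−0.40 to 0.078, and 0.023 without control replicate 3), Cebpb (−0.87 to 0.24, and 0.21 without control replicate 3) and Fabp4 (−0.18 to 0.11). With the replicate number as a block, 1161 tested genes were higher and 698 lower, 5 list genes were higher and 5 lower, and Plin2 had an adjusted p of 0.0193. Same-numbered samples had correlations of their deviations from the group mean of −0.053, 0.00027 and −0.055. These values cannot tell whether same-numbered samples shared a culture or day, because the control deviations carry the shift of control replicate 1. Without a filter on low values 1432 of the genes then tested were higher and 884 lower, and 6 list genes were lower. With the GC correction 2062 tested genes were higher and 2433 lower, and 17 list genes were lower. The cause of these differences was not tested. Pseudocount, total-read scaling and limma-voom on the same genes gave 1598 to 1776 higher and 1165 to 1331 lower genes. At these depths Pparg, Cd36, Lpl and Adipoq, with 0 to 13 reads a sample, allow no firm comparison.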
